A study of Mus musculus with 6 samples.

Results

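Retinoid genes were followed in primary cultures of mouse inguinal white fat (iWAT) with and without miR182 overexpression. The genes were 9 that handle vitamin A and its acid inside a cell, picked by symbol from the 22609 gene symbols in the read count lists: Stra6, Rdh10, Dhrs3, Aldh1a1, Aldh1a2, Aldh1a3, Crabp1, Crabp2 and Cyp26b1. All 9 symbols were present in the lists of all 6 samples. The choice used names alone and no measured value, although it was made with earlier results of these data known.

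The cultures were grown from the stromal-vascular cells of inguinal fat of male C57BL6 mice, given in the labels as 3 weeks old, and were then differentiated. A control vector was carried by 3 samples and miR182 overexpression by the other 3, both introduced by electroporation according to the labels, and each group is numbered 1 to 3. The study's methods describe a synthetic miR-182-5p mimic and a mimic control given with a lipid reagent instead, and state an older age. No sequence is given for the mimic. The mature miR-182-5p sequence that the methods spell for their quantitative PCR carries the seed of the miR-30 family, not that of miR-182-5p in RefSeq. The oligonucleotide that entered the cells was not read directly. Neither source says whether the replicates came from separate mice or from separate cultures, so the p values measure the spread between these samples only. Poly(A) RNA was sequenced in stranded libraries, which leave out mature miRNAs, so the level of miR-182-5p itself was not measured. Reads counted on genes numbered from 25869810 to 28796712 per sample, and the control samples lay apart from the miR182 samples on a first principal component with 63.3% of the variance.

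Vitamin A reaches cells as retinol bound to a carrier protein, and STRA6 is a membrane receptor that takes it up. RDH10 oxidizes retinol to retinal, DHRS3 reduces retinal back to retinol, and the 3 retinal dehydrogenases ALDH1A1, ALDH1A2 and ALDH1A3 oxidize retinal to retinoic acid without return. CRABP1 and CRABP2 bind retinoic acid in the cytoplasm, CRABP2 passes it to nuclear receptors, and CYP26B1 breaks it down. In white fat, retinal and retinoic acid restrain adipocyte differentiation, and mice that lack Aldh1a1 resist weight gain on a fat-rich diet.

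The miRNA named in the labels and its matches in the retinoid transcripts are shown first, because the design rests on that sequence. Mature sequences are from RefSeq on GRCm38.p6, with the seed (bases 2 to 8) in capitals. Mouse miR-182-5p lies at chr6:30165962-30165986 on the minus strand. The miR-30c-5p sequence, which has copies at chr1:23291714-23291736 on the plus strand and at chr4:120769584-120769606 on the minus strand, is given for its seed.
miR-182-5p: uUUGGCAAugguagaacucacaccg
miR-30c-5p: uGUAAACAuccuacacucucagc

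The reverse complement of the miR-182-5p seed, TTGCCAA, and the match TGCCAAA, which pairs with bases 2 to 7 and ends in A, were searched on the transcript strand in the longest annotated 3′-UTR of each gene (GENCODE M21, GRCm38). These motifs share 6 bases, so TTGCCAA followed by A counts for both. Rdh10 held TTGCCAA once, and Aldh1a2 held TGCCAAA at 2 places. The other 7 retinoid genes, Aldh1a3 among them, held neither in the 3′-UTR. None of the 9 held TGTTTAC, the match to the miR-30 seed, in the 3′-UTR. Over the whole transcript that carries this 3′-UTR, TTGCCAA was found 2 times in Aldh1a1 and 1 time each in Aldh1a2, Aldh1a3 and Rdh10. Of the tested genes, 27.0% held TTGCCAA somewhere in that transcript. In the 3′-UTR, among 12519 tested genes with one annotated, 12.5% held TTGCCAA, 14.3% held TGCCAAA, 2.38% held TGCCAAA at least 2 times, and 16.4% held TGTTTAC. Of the genes with TTGCCAA, 11.7% were called lower by the cutoffs given below, against 4.61% of those without it. For TGTTTAC the shares were 5.74% and 5.45%. Which oligonucleotide was delivered was not tested. The windows below carry the match in capitals, from chr1:16131586-16131614 (plus strand) for Rdh10 and from chr9:71295829-71295857 and chr9:71295880-71295908 (plus strand) for Aldh1a2.
Rdh10 site: agcttgggtttTTGCCAAtggggtctttt
Aldh1a2 site 1: ctctcctgagcTGCCAAAtcgaagccagt
Aldh1a2 site 2: ttatttaaaaaTGCCAAAcatagcctaga

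The comparison asked which retinoid genes differed between cultures with miR182 overexpression and control cultures. Aldh1a2 and Aldh1a3 fell to 4.86 and 16.2 CPM (reads per 1000000 reads), from 15.0 and 38.9 in controls, while Aldh1a1, the third retinal dehydrogenase, stood at 55.9 against 55.7 CPM. Cyp26b1 stood at 12.2 CPM against 9.42 in controls, and Rdh10 at 7.91 against 10.5. Levels are CPM on library sizes scaled by the TMM method, and p values are from the quasi-likelihood test of edgeR, adjusted by Benjamini-Hochberg over all 13117 genes with enough reads to pass its filter. The cutoffs of the study were used, so that a called gene differed at least 1.5-fold with an adjusted p under 0.05. Of the 9 retinoid genes 8 were tested, and 2 of these were called, both lower, beside 7.45% of all genes tested called in either direction and 5.48% called lower. By adjusted p alone, 6 of the 8 passed, 5 lower and 1 higher, beside 46.7% of all genes. The sample values of the groups did not overlap for 5 of the 8, beside 54.8% of all genes. The median log2 fold change of the 8 was -0.27, beside -0.0043 over all genes tested.

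**Figure D1:**
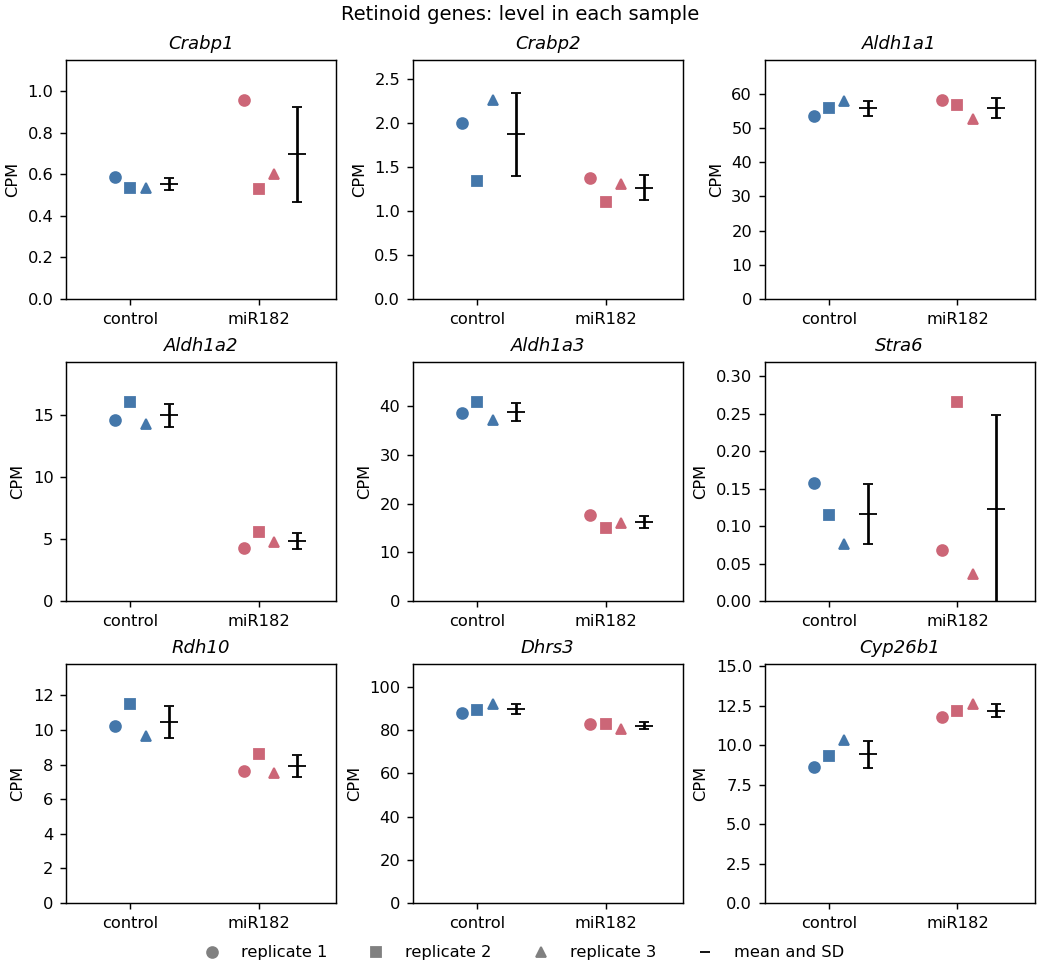
Level of each of the 9 retinoid genes in every sample, in CPM on an axis of its own that starts at 0. Points are samples (circle, square and triangle for replicates 1, 2 and 3), and the bar beside each group is its mean with SD (n = 3), cut off at 0 for Stra6. The groups lie apart for Aldh1a2, Aldh1a3, Rdh10, Dhrs3 and Cyp26b1, and overlap for the other 4.

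Aldh1a2 (GRCm38 chr9:71215789-71296243, plus strand) encodes the retinal dehydrogenase that makes most of the retinoic acid of the early embryo. Its level was 14.7, 16.1 and 14.3 CPM in control replicates 1 to 3 and 4.25, 5.58 and 4.75 CPM in miR182 replicates 1 to 3, from 373, 420 and 374 reads against 124, 147 and 134. The highest miR182 sample was far below the lowest control sample. The group means were 15.0 ± 0.932 and 4.86 ± 0.673 CPM (SD, n = 3), a 3.09-fold difference. On the log2 scale this was -1.63, with a standard error of 0.097, a 95% interval from -1.84 to -1.42 and an adjusted p of 1.05e-08 in edgeR. Aldh1a2 ranked 43 by size of change and 168 by p among all genes tested.

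Aldh1a3 (GRCm38 chr7:66390890-66427517, minus strand) encodes the enzyme that carries out the same step in parts of the developing eye and nose. Its level was 38.5, 40.9 and 37.2 CPM in the control samples and 17.6, 15.0 and 16.0 CPM in the miR182 samples. Again no miR182 sample came near a control sample. The means were 38.9 ± 1.89 and 16.2 ± 1.298 CPM (SD, n = 3), a 2.39-fold difference, or -1.26 on the log2 scale (standard error 0.064, 95% interval -1.39 to -1.12, adjusted p = 1.96e-09 in edgeR). Both genes were called in all 13 alternative fits, with log2 fold changes from -1.74 to -1.54 for Aldh1a2 and from -1.32 to -1.20 for Aldh1a3. An exact permutation test of 3 samples against 3 could not give a two-sided p below 0.1 for any single gene.

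Aldh1a1 (GRCm38 chr19:20492715-20643465, plus strand), the retinal dehydrogenase best known from white fat, measured 53.6, 55.7 and 57.9 CPM in the control samples and 58.2, 56.6 and 52.7 CPM in the miR182 samples. The samples of the groups were interleaved. The log2 difference was 0.0036 with a standard error of 0.047, an adjusted p of 0.957 from edgeR and a 95% interval from -0.096 to 0.104. Of the 2309 windows of 50 bases in its transcripts, 151 are found unchanged in Aldh1a7, a close copy on the same chromosome, so some Aldh1a1 reads may have been assigned elsewhere or set aside. Aldh1a7 itself had 196 ± 12.6 CPM in controls and 157 ± 13.3 with miR182 (SD, n = 3). Its log2 difference was -0.32 (adjusted p = 0.000229 in edgeR). Whether shared reads altered the Aldh1a1 level or its share among the dehydrogenases was not tested. The other 8 retinoid genes shared no such window with another gene, and none of the 9 shared exon bases with another annotated gene.

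**Figure D2:**
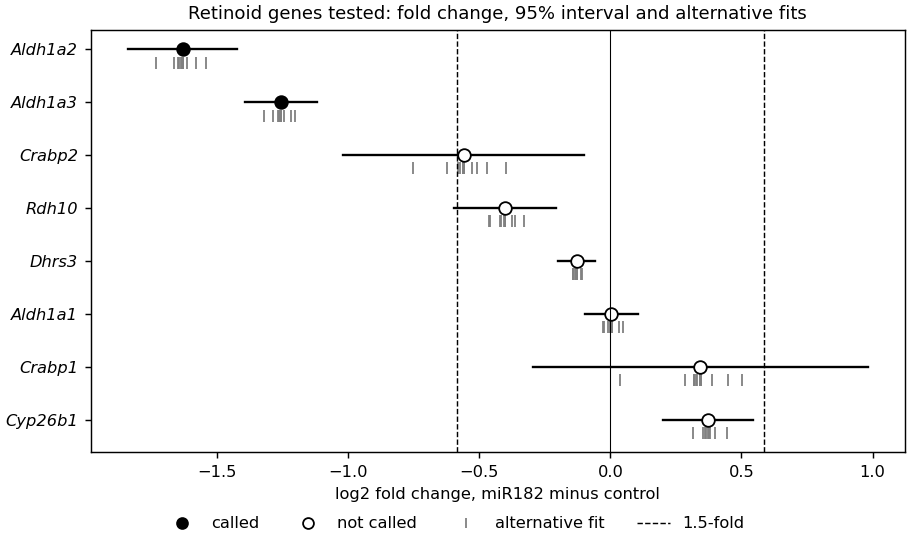
Log2 fold change (miR182 minus control) of the 8 retinoid genes tested, with the 95% interval from edgeR as a line and the values of the alternative fits as grey ticks below it. Filled points are called genes, and dashed lines mark 1.5-fold. Only Aldh1a2 and Aldh1a3 have intervals that lie wholly beyond 1.5-fold.

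Levels of different genes can be set side by side only per transcript length, and here the CPM was divided by the kilobases covered by all annotated exons of a gene. In control samples Aldh1a1 held 11.3 ± 0.432, Aldh1a3 8.42 ± 0.408 and Aldh1a2 6.63 ± 0.412 CPM per kb (SD, n = 3). In miR182 samples the values were 11.3 ± 0.569, 3.51 ± 0.281 and 2.15 ± 0.297 CPM per kb in the same order. The order of the 3 genes was the same in both groups, with Aldh1a1 first and Aldh1a2 last, and the spreads of neighbouring genes did not overlap. The summed level of the 3 was 26.3 ± 0.813 CPM per kb in controls and 17.0 ± 0.640 with miR182. Of this sum, Aldh1a1 made up 42.9% in controls and 66.6% with miR182, Aldh1a2 25.2% and 12.7%, and Aldh1a3 32.0% and 20.7%. With the longest transcript as the length, the Aldh1a1 share was 56.9% and 77.5%. These shares are a description and were not tested.

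**Figure D3:**
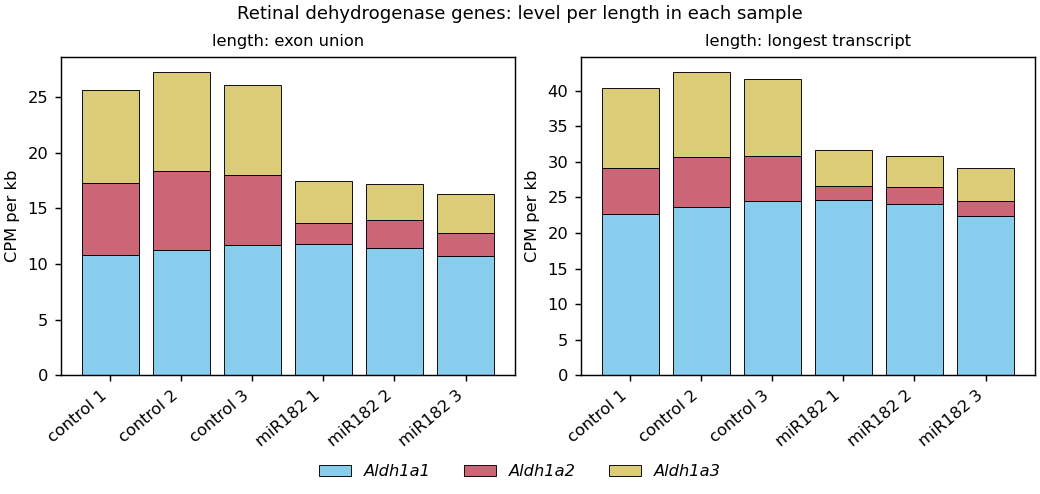
Level per length (CPM per kb) of Aldh1a1, Aldh1a2 and Aldh1a3, stacked for each of the 6 samples, with the length taken as all exons of the gene (left) or as its longest transcript (right). The Aldh1a1 segment is of like height in all samples, and the segments of the other two genes are shorter in all 3 miR182 samples.

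Upstream of the dehydrogenases, Rdh10 (GRCm38 chr1:16105774-16133734, plus strand), the enzyme that makes retinal, measured 10.2, 11.5 and 9.65 CPM in the control samples and 7.60, 8.62 and 7.51 CPM in the miR182 samples. All miR182 samples were below all control samples. On the log2 scale the difference was -0.40 with a standard error of 0.091 (adjusted p = 0.00217 in edgeR), short of the 1.5-fold cutoff. Rdh10 is the gene of the 9 whose 3′-UTR holds the full seed match shown above.

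Dhrs3 (GRCm38 chr4:144892827-144928209, plus strand), whose product turns retinal back into retinol, had 87.9, 89.4 and 92.1 CPM in the control samples and 83.0, 83.0 and 80.4 CPM in the miR182 samples. The groups did not overlap, and the difference was small, at -0.13 on the log2 scale (standard error 0.033, adjusted p = 0.00533 from edgeR). With 30.7 CPM per kb in controls and 28.1 with miR182, Dhrs3 had the highest level per length of the 9 genes. Rdh10 stood at 2.51 and 1.90 CPM per kb.

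Stra6 (GRCm38 chr9:58063788-58153996, plus strand), the retinol receptor, was barely detected, with 4, 3 and 2 reads in the control samples and 2, 7 and 1 reads in the miR182 samples. It failed the filter on low counts and was not tested in the main fit. In a fit without the filter its log2 difference was 0.045 with a standard error of 0.78 (adjusted p = 0.975 from edgeR), the largest standard error of the 9 genes.

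Of the binding proteins, Crabp2 (GRCm38 chr3:87948666-87953376, plus strand) had 51, 35 and 59 reads in the control samples and 40, 29 and 37 in the miR182 samples, or 1.87 ± 0.475 and 1.26 ± 0.142 CPM (SD, n = 3). In CPM, control replicate 2 (1.34) lay within the range of the miR182 samples (1.10 to 1.37). The log2 difference was -0.56 (standard error 0.21, 95% interval -1.02 to -0.10), with an adjusted p of 0.0447 from edgeR, just under the fold cutoff. The gene was called without control replicate 2 (-0.75) and without miR182 replicate 1 (-0.62), whereas the adjusted p was above 0.05 in 6 of the 13 alternative fits and reached 0.198. Crabp1 (GRCm38 chr9:54764748-54773110, plus strand) had 15, 14 and 14 reads in the control samples and 28, 14 and 17 in the miR182 samples. Its groups overlapped, with miR182 replicate 1 above the rest, and the log2 difference of 0.34 had a 95% interval from -0.30 to 0.98 (adjusted p = 0.372 from edgeR). Per length the Crabp2 level was 1.41 CPM per kb in controls and the Crabp1 level 0.691, which placed both below the dehydrogenases.

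Cyp26b1 (GRCm38 chr6:84571414-84593908, minus strand), the retinoic acid hydroxylase, had 8.64, 9.30 and 10.3 CPM in the control samples and 11.8, 12.2 and 12.6 CPM in the miR182 samples. Every miR182 sample was above every control sample. The means were 9.42 ± 0.837 and 12.2 ± 0.396 CPM (SD, n = 3), which is 0.37 higher on the log2 scale with a standard error of 0.080 (adjusted p = 0.00151 in edgeR), below the fold cutoff. The adjusted p of Cyp26b1, Rdh10 and Dhrs3 remained under 0.05 in all 13 alternative fits. Cyp26b1 was the one retinoid gene with an adjusted p under 0.05 in the higher direction. The summed per-length level of Aldh1a1, Aldh1a2 and Aldh1a3, divided by that of Cyp26b1, was 15.9, 15.7 and 13.6 in the control samples and 7.92, 7.55 and 6.90 in the miR182 samples, a description with no test of its own.

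Promoters of the called gene Aldh1a2 and of Cyp26b1, which differed in the other direction, are given from RefSeq on GRCm38.p6. Each is the 250 bases before the RefSeq start, on the strand of the gene. The windows lie at chr9:71215539-71215788 (plus strand) and chr6:84593811-84594060 (minus strand). In GENCODE the Cyp26b1 gene reaches 84593908, so part of its window lies inside the gene as placed above. The motif search and base content of Cyp26b1 refer to this RefSeq window. RefSeq windows were at hand for 6 of the 9 genes, not for Aldh1a3, Rdh10 or Crabp2. The 6-base motif of retinoic acid receptors was searched in the form AGGTCA, in the form GGGTCA, in the form AGTTCA and in the form GGTTCA on both strands, singly (overlaps allowed) and as direct repeats with 1, 2 or 5 bases between them. No capitals appear below because neither promoter held a single motif, whereas 38.6% of the 32851 RefSeq windows of this length did. The direct repeats occurred in 0.164%, 0.174% and 0.0883% of all windows and in no window of the 6 genes. The Aldh1a2 promoter has a GC content of 77.6% with 40 CpG dinucleotides, and that of Cyp26b1 has 64.8% with 7.
Aldh1a2 promoter: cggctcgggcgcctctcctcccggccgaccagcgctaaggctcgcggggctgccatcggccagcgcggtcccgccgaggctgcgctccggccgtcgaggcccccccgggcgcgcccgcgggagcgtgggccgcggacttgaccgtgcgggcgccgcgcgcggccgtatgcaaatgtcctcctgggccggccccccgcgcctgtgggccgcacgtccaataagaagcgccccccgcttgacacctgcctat
Cyp26b1 promoter: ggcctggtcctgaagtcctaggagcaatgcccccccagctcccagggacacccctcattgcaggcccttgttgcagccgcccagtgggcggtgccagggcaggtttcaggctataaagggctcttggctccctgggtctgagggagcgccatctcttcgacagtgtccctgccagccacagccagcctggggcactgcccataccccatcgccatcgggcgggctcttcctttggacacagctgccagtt

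The rest of the pathway was described with 67 further genes listed by textbook role, of which 46 were tested. Of these 7 were called, all lower, beside the 5.48% of all tested genes called lower, with adjusted p values in edgeR from 1.53e-11 for Rarg to 0.000324 for Rdh12. By adjusted p alone 5 were higher and 20 lower, beside 46.7% of all genes in either direction. The median log2 fold change of the 46 was -0.10. Rbp4, the retinol carrier that adipocytes secrete, had 81.2 ± 5.07 and 54.0 ± 2.40 CPM in control and miR182 samples (SD, n = 3) and was called at -0.59 on the log2 scale. Rbp4 was just past the cutoff and was not called without control replicate 1, without control replicate 2 or without miR182 replicate 1, where its log2 fold change came down to as little as -0.55.

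Among 4 tested genes of retinyl ester handling, Dgat1, which also makes triglycerides, was called at -0.66 and the esterase gene Ces1d at -1.33, while Lrat, the main retinol esterifying enzyme of liver, had 0 reads in all samples. Of 12 tested dehydrogenases and reductases, Adh1 (75.3 ± 4.52 and 39.3 ± 2.35 CPM, -0.94) and Rdh12 (8.84 ± 0.444 and 5.52 ± 1.04 CPM, -0.68) were called, Rdh12 not without miR182 replicate 1 (-0.53). Adh1 oxidizes retinol, and Rdh12 is a retinal reductase best known from photoreceptors. None of the 3 tested genes of carotenoid cleavage and uptake was called, beside 7.45% of all genes. Of 2 fatty acid binding protein genes that the list placed with carriers of retinoic acid to receptors, Fabp4 was called at -0.68. It is also an adipocyte marker.

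Among the retinoid receptors Rarg, which encodes retinoic acid receptor gamma, was called. Its level was 71.0, 66.0 and 65.1 CPM in the control samples and 19.6, 21.9 and 19.6 CPM in the miR182 samples, with no overlap. It was lower by a log2 fold change of -1.73 with a standard error of 0.055 (adjusted p = 1.53e-11 in edgeR). Rara (0.07), Rarb (0.01), Rxra (-0.07), Rxrb (0.05) and Rxrg (-0.04) had log2 differences with adjusted p values from 0.135 to 0.946 in edgeR. The 3′-UTR of Rarg held TTGCCAA once, followed by A, and TGCCAAA at 1 further place, shown on the minus strand at chr15:102235889-102235917 and chr15:102235062-102235090. It also held TGTTTAC at 2 places.
Rarg site 1: agctcgttattTTGCCAAagtttctaggg
Rarg site 2: ttatatttagcTGCCAAAtaagattcctg

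Of 6 tested receptor cofactors none was called, and 4 were higher and 1 lower by adjusted p alone. Of 11 tested genes known to be induced by retinoic acid none was called, with 1 higher and 4 lower by adjusted p alone and a median log2 fold change of 0.014. Beside these counts, 7.45% of all genes tested were called and 46.7% passed by adjusted p alone. None of the 3 other genes listed for retinoic acid breakdown passed the filter, so Cyp26b1 was the only CYP26 gene with enough reads to test.

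**Figure D4:**
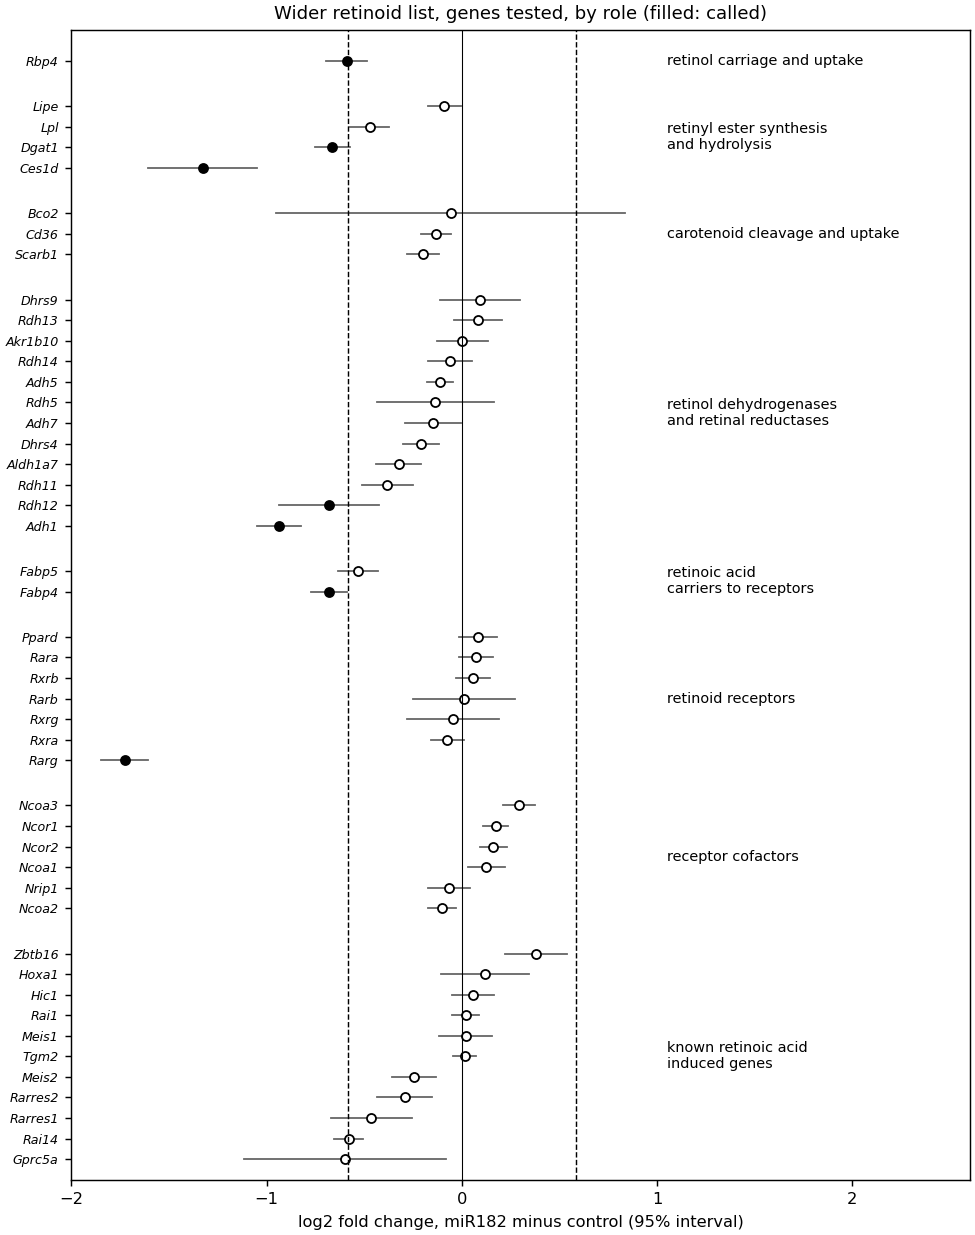
Log2 fold change (miR182 minus control) with its 95% interval from edgeR for the tested genes of the wider retinoid list, grouped by role. Filled points are the 7 called genes, all to the left of the dashed 1.5-fold line, and Rarg has the largest difference.

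**Figure D5:**
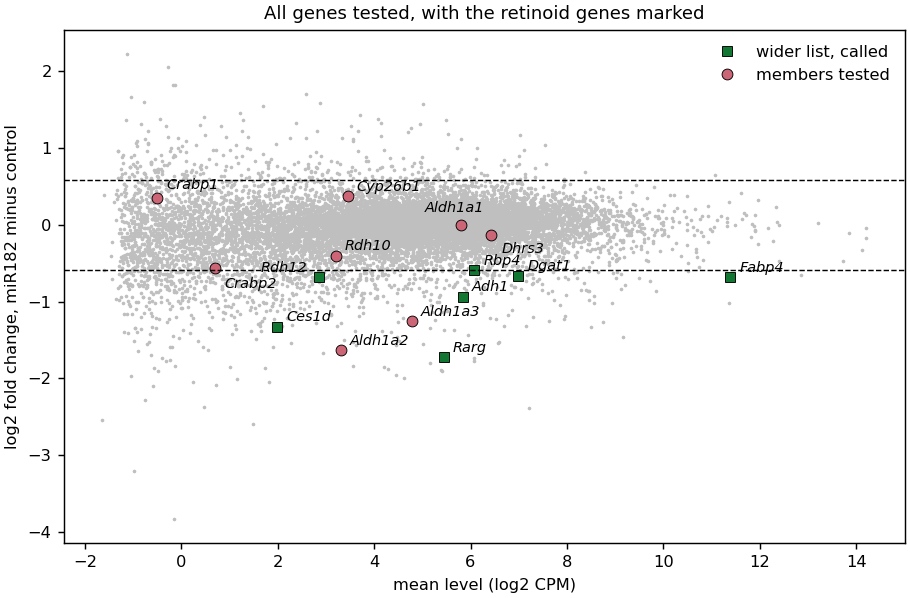
Log2 fold change (miR182 minus control) against mean level (log2 CPM) for the 13117 genes tested, with the 8 tested retinoid genes as circles and the 7 called genes of the wider list as squares. Dashed lines mark 1.5-fold, and among the circles Aldh1a2 and Aldh1a3 lie clearly beyond the lower one.

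The genes whose log2 CPM followed that of Aldh1a2 most closely over the 6 samples were Kcp, Sh3d19 and Sfrp4 (Pearson r from 0.9990 to 0.9996). For Aldh1a3 they were Rfc1, Gria3 and Tnfrsf1a (r from 0.9985 to 0.9986). The samples form 2 groups, so such values mostly reflect a step between the groups, and 171 and 182 genes passed 0.99. Aldh1a3 followed Aldh1a2 with r = 0.971. Within 500 kb, none of 4 tested neighbours of Aldh1a2 (log2 fold change -0.32 to 0.05) and none of 7 of Aldh1a3 (-0.29 to 0.25) was called, beside 7.45% of all genes. By adjusted p alone 1 of the 4 and 5 of the 7 passed, beside 46.7% of all genes.

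Marker genes of the cell types that such a culture may hold differed in part between the groups, not all in one direction. By adjusted p alone, 7 of 9 adipocyte markers were lower and 1 higher. Of 8 tested progenitor or fibroblast markers, 6 were lower and 1 higher. Of 5 tested smooth muscle or mural markers 3 were higher and 0 lower. The share of all genes that passed in either direction was 46.7%. The summed level of 9 adipocyte markers was 12106 to 12882 CPM in control samples and 8273 to 9365 with miR182, 2 of them called lower. Most of this sum came from Lpl and Fabp4, with means of 6275 and 3316 CPM in controls and 4527 and 2067 with miR182. The summed level of 9 progenitor or fibroblast markers was 39725 to 41524 and 34990 to 36190 CPM, 3 of the 8 tested called lower. Col1a1 and Col3a1 made up most of it, with means of 19248 and 19711 CPM in controls and 18643 and 15750 with miR182. Neither was called. For 6 smooth muscle or mural markers the sum was 3455 to 3627 and 4131 to 4496 CPM, none called. Of all genes tested, 7.45% were called in either direction and 5.48% were called lower. Mesothelial cells are a known source of Aldh1a2. Of 7 mesothelial markers found, Krt19 was called higher with miR182, while Msln, Upk3b, Upk1b, Wt1 and Bnc1 had at most 11 reads in a sample. The remaining one, Lrrn4, had 12, 14 and 14 reads in the control samples and 9, 7 and 13 in the miR182 samples, a log2 difference of -0.57 with an adjusted p of 0.178 in edgeR. Sums of endothelial, macrophage and Schwann cell markers stayed at or under 15.4 CPM, with 1 gene called lower in each list. Of the 5 epithelial markers none was tested, and their sum reached at most 0.268 CPM. In bulk RNA, fewer cells of a type and less RNA per cell cannot be told apart, and the part of cell makeup in the retinoid differences was not tested.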

How the data were processed

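RNA-seq of 6 samples (3 control, 3 miR182) was analysed from the read counts per gene that the authors deposited, which are raw and not normalized. The submitters' processing notes name bcl2fastq, TopHat2, HTSeq and the build mm9, without versions. The annotation and the strand setting of the counting are not given in the sources used here. The 5 tally lines of each list were left out. Of the sum of reads on genes, outside genes and ambiguous between genes, 12.7% to 13.0% lay outside genes and 0.652% to 0.667% were ambiguous. The tally of alignments that are not unique, not part of that sum, held 19363264 to 21673840 per sample, so genes with close copies such as Aldh1a1 may be undercounted. Replicates of a group differed by more than sampling noise (chi-square per degree of freedom 2.08 to 6.90).

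Counts were tested in R 4.3.3 with edgeR 4.0.16 (TMM, default filterByExpr with a minimum count of 10, glmQLFit, glmQLFTest, two-sided, Benjamini-Hochberg over 13117 genes), with 2 groups and no block. CPM use TMM-scaled library sizes, and 0.1 was added before log2 for correlations. Alternatives were DESeq2 1.42.0, limma-voom 3.58.1, DESeq2 or upper-quartile factors, no filter, a minimum of 10 reads in each sample, a replicate block, leaving out each sample, no fold cutoff, a 2-fold cutoff and longest-transcript length.

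GENCODE M21 on GRCm38 gave positions and lengths for 22191 of the 22609 symbols, 1907 of them matched by an older name, and a 3′-UTR for 19783. GRCm38 is not the build of the reads, and the count lists hold no coordinates. Named genes are the 9 retinoid genes, every called gene of the wider list, the retinoid receptors, Rbp4, Lrat, and the 3 genes most like each called retinoid gene. A further gene of the wider list is not reported here. The members and lists were chosen with earlier results of these data known. Aldh1a7 and the mesothelial markers are named for sequence identity and for cell makeup, and Rai14 because it lay close to the fold cutoff. Tables and figures were made in Python 3.11.15 (pandas 2.3.3, matplotlib 3.10.9).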

Additional observations from a re-analysis of the deposited data

How the results depend on the processing

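The 2 calls among the retinoid genes were made in all 13 alternative fits, which were DESeq2, limma-voom, other size factors, other filters, the replicate block and leaving out each sample. Crabp2 joined them without control replicate 2 or without miR182 replicate 1, and its log2 fold change ranged from -0.75 to -0.40 when 1 sample was left out. Aldh1a1, whose difference was within error, changed sign with upper-quartile factors (-0.0084), and ranged from -0.027 to 0.047 when 1 sample was left out. Without a fold cutoff, 6124 genes, 6 retinoid genes and 25 of the wider list passed. With a 2-fold cutoff, 280 genes, Aldh1a2, Aldh1a3 and 2 of the wider list passed. With the longest transcript as length, the share of Aldh1a2 in the 3 dehydrogenases was 16.0% in controls and 7.04% with miR182, and that of Aldh1a3 27.2% and 15.4%.

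Whether the replicate numbers pair the samples is not stated. Deviations from the group means of same-numbered samples correlated at -0.17, -0.041 and -0.069, and those of differently numbered samples at -0.050 to 0.110. With 3 samples in a group these values cannot decide whether equal numbers share an origin. A fit with the replicate block called 925 genes. In it Aldh1a2 stood at -1.63 (adjusted p = 4.54e-07 in edgeR) and Aldh1a3 at -1.26 (5.09e-07), and no call among the retinoid genes changed. Depth limited Stra6, Crabp1 and Crabp2, with at most 59 reads in a sample.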
